A study of Bos taurus with 8 samples.

Results

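Glycolysis splits glucose into pyruvate in the cytosol, and lactate dehydrogenase then interconverts pyruvate and lactate while recycling NADH. Several steps are carried by alternative genes for the same reaction: hexokinase 1 (HK1) is the widely expressed housekeeping form and hexokinase 2 (HK2) the inducible one, and lactate dehydrogenase is a tetramer of A (LDHA) and B (LDHB) subunits, with a C subunit (LDHC) best known from the germ line. Mammalian embryos in the first cleavages are known to use pyruvate and lactate more than glucose, with glucose use rising later, towards the blastocyst. The 10 genes described here are 3 lactate dehydrogenase genes (LDHA, LDHB, LDHC) and 7 glycolytic enzyme genes (HK1, HK2, ALDOA, GAPDH, PGK1, ENO1, PKM). They were taken by symbol from the expression files. All 10 were found, each in 1 row, among 21258 features, and all 10 were among the 14839 features kept for testing because 2 or more libraries reached 1 FPKM. The files give 1 value per gene, so splice forms such as those of PKM were not separated.

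Each library came from a pool of 8 Holstein cattle embryos at the stage of 8 cells. There were 3 libraries of embryos made by in vitro fertilisation (IVF), 3 of embryos cloned by somatic cell nuclear transfer (SCNT), in which a donor nucleus replaces that of the egg, and 2 of cloned embryos with overexpression of the histone demethylase KDM4E (KDM4E-SCNT). The series design names SCNT without overexpression as the control of both other groups. The labels give neither the way KDM4E was overexpressed, the donor cells, the hour of collection nor any batch, so a p-value here reflects the spread among these samples alone, and that spread may be technical. Values are FPKM, fragments scaled to transcript length and library size, which are relative to the rest of each library and can be compared between genes. In pooled embryos, fewer cells that express a gene and less RNA per cell cannot be told apart. Differences are between group means of log2(FPKM + 1), with a standard error (SE), and a gene was called at a limma p under 0.05 after Benjamini-Hochberg adjustment over all 14839 features.

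Between 10975 and 13050 features reached 1 FPKM in a library, and mitochondrially encoded genes held 6.08% to 11.5% of all FPKM. The targeted gene was checked through LOC524768, a transcript that the files describe as a KDM4C-like demethylase and whose identity with KDM4E is not certain. It stood at 25.44, 29.95 and 33.93 FPKM in SCNT, at 101.85 and 206.44 in KDM4E-SCNT and at 88.34 to 109.12 in IVF. The summed FPKM of 11 oocyte transcripts, such as GDF9 and ZP2, was 3436 to 6879 in IVF, 510 to 581 in SCNT, and 2103 and 3545 in KDM4E-SCNT. Eight-cell embryos are also known to start their own transcription, and 8 genes of that activation, such as NANOG and KLF4, summed to 417 to 653 in IVF, 2364 to 2912 in SCNT, and 1655 and 909 in KDM4E-SCNT. Both sums thus moved with the groups. All 11 oocyte transcripts were called higher in IVF than in SCNT, beside 34.9% of all features. Of the 8 activation genes 6 were called lower and 0 higher, beside 23.6% of all features lower, while KLF17 and HSPA1A overlapped. In KDM4E-SCNT against SCNT 4 of the 8 were lower (11.0% of all features), and KLF4 was not called (limma adjusted p = 0.0533). EIF1AX was the largest part of the SCNT sum, at 1282.51 to 1562.74 FPKM. The sum of 14 fibroblast markers was 26.6 to 48.5 in IVF, 115 to 180 in SCNT, and 62.8 and 342 in KDM4E-SCNT, whose libraries lay on either side of SCNT. Of the 10 fibroblast markers tested, 4 were lower in IVF than in SCNT and 1 (FN1) higher. LGALS1 (8.13 to 23.98 FPKM in IVF, 42.99 to 68.96 in SCNT, 10.94 and 127.17 in KDM4E-SCNT) and SPARC (0.52 to 0.94, 23.56 to 50.59, 10.4 and 53.32) held most of that sum in SCNT, with LUM at 84.6 in KDM4E-SCNT replicate 2, whereas COL6A2 was listed at 0 in every library except that one. Markers of cumulus cells (9 measured) summed to 52.5 to 83.4 in IVF, 15.8 to 31.9 in SCNT, and 33.9 and 70.1 in KDM4E-SCNT. Among them HAS2, a hyaluronan synthase, stood at 41.84 to 70.27 FPKM in IVF, 4.87 to 9.56 in SCNT, and 27.54 and 47.37 in KDM4E-SCNT, and was called higher than in SCNT in IVF (2.88, limma adjusted p = 2.41e-05) and in KDM4E-SCNT (2.29, limma adjusted p = 0.00163), while AMH and FSHR were at 0.17 FPKM or less everywhere. TNFAIP6, another cumulus marker, was instead called lower in IVF than in SCNT (-1.06, limma adjusted p = 0.0492). The 3 cumulus markers tested thus gave 1 higher and 1 lower in that comparison, with a median log2 difference of -0.22. HAS2 alone held most of the cumulus sum in each IVF library. Markers of sperm (7 measured) summed to 9.53 to 12.7 in IVF, 19.0 to 37.3 in SCNT, and 10.1 and 12 in KDM4E-SCNT. That sum did not follow the list as a whole. Of 6 tested in IVF against SCNT, 2 were called higher and 1 lower, with a median log2 difference of 0.70. Of the 7, SCNT replicates 1 to 3 held 3, 1 and 2 at 1 FPKM or more, and the IVF libraries 4, 4 and 3. The part of these transcripts in the results below was not tested.

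The lactate dehydrogenase genes differed between IVF and SCNT in opposite directions, LDHA and LDHC being higher in IVF and LDHB lower. LDHA (ENSBTAG00000008683.5, chromosome 29, 26543861 to 26554318 in the files' UMD3.1 coordinates), which encodes the subunit that prevails in glycolytic tissues, was listed at 1220.71, 536.87 and 543.06 FPKM in IVF replicates 1 to 3. In the same order the SCNT libraries held 27.11, 80.88 and 44.65 FPKM, and KDM4E-SCNT held 312.74 and 466.38. Every IVF and KDM4E-SCNT library lay above every SCNT library, and both KDM4E-SCNT libraries lay below all IVF libraries. Against a SCNT mean of 50.9 ± 27.4 FPKM (SD, n = 3), the IVF mean was 767 ± 393 (SD, n = 3), a log2 difference of 3.91 ± 0.41 (SE), or 15.0-fold, with a limma adjusted p of 9.90e-06. IVF replicate 1 held the highest value, and the log2 difference without it was 3.52. In KDM4E-SCNT the log2 difference from SCNT was 3.02 ± 0.46, or 8.12-fold (limma adjusted p = 0.00117).

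LDHB (ENSBTAG00000019603.5, chromosome 5, 88962679 to 88981219), which encodes the subunit that prevails in oxidative tissues such as heart, ran the other way. It was listed at 52.87, 44.39 and 55.2 FPKM in the IVF libraries, at 235.27, 124.62 and 191.38 in SCNT, and at 60.39 and 113.95 in KDM4E-SCNT. The 3 groups did not overlap: IVF was lowest, SCNT highest and KDM4E-SCNT between them. IVF (50.8 ± 5.69, SD, n = 3) was lower than SCNT (184 ± 55.7, SD, n = 3) by a log2 difference of -1.79 ± 0.32 (limma adjusted p = 0.000465). KDM4E-SCNT differed from SCNT by -1.09 ± 0.36 (limma adjusted p = 0.0353), a call that was lost in 9 of 15 alternative analyses, whose adjusted p ran from 0.00623 to 0.243. It was lost without SCNT replicate 1 (-0.89, limma adjusted p = 0.122), SCNT replicate 3 (-1.04, limma adjusted p = 0.10) or KDM4E-SCNT replicate 1 (-0.64, limma adjusted p = 0.243). Leaving out either KDM4E-SCNT library leaves 1 in that group, here and below, and its p then takes all of its spread from the IVF and SCNT libraries, assuming that the lone library varies as they do.

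LDHC (ENSBTAG00000002488.5, chromosome 29, 26506380 to 26539353) lies 4507 bases from LDHA on the same chromosome. It was listed at 59.61, 80.85 and 71.02 FPKM in the IVF libraries, at 5.08, 5.73 and 4.51 in SCNT, and at 39.34 and 45.25 in KDM4E-SCNT. The replicates of each group lay close together, and no groups overlapped. The log2 difference was 3.54 ± 0.28 for IVF against SCNT, or 11.7-fold (limma adjusted p = 1.48e-06), and 2.83 ± 0.31 for KDM4E-SCNT against SCNT (limma adjusted p = 0.000453).

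Within each library, LDHA made up 91.6%, 81.1% and 81.1% of the summed FPKM of the 3 genes in IVF, 10.1%, 38.3% and 18.6% in SCNT, and 75.8% and 74.6% in KDM4E-SCNT. LDHB made up 3.97% to 8.25% in IVF, 59.0% to 88.0% in SCNT, and 14.6% and 18.2% in KDM4E-SCNT. LDHC held the remaining 4.47% to 12.2% in IVF, where it exceeded LDHB in each library, 1.87% to 2.71% in SCNT, and 9.54% and 7.23% in KDM4E-SCNT. LDHA thus exceeded LDHB in every IVF and KDM4E-SCNT library, and LDHB exceeded LDHA in every SCNT library. The ratio of LDHA to LDHB, taken as log2 of (FPKM + 1) over (FPKM + 1), averaged 3.78 in IVF, -1.92 in SCNT and 2.19 in KDM4E-SCNT. The differences in this log2 ratio were 5.70 for IVF minus SCNT, 4.11 for KDM4E-SCNT minus SCNT and -1.59 for KDM4E-SCNT minus IVF. Each had a two-sided exact permutation p of 0.1, the smallest that 3 libraries against 3, or 2 against 3, can give here, and 0.1 after adjustment over 6 such ratio tests. The summed FPKM of the 3 genes was 1333, 662 and 669 in IVF, 267, 211 and 241 in SCNT, and 412 and 626 in KDM4E-SCNT, and no groups overlapped in it.

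**Figure D1:**
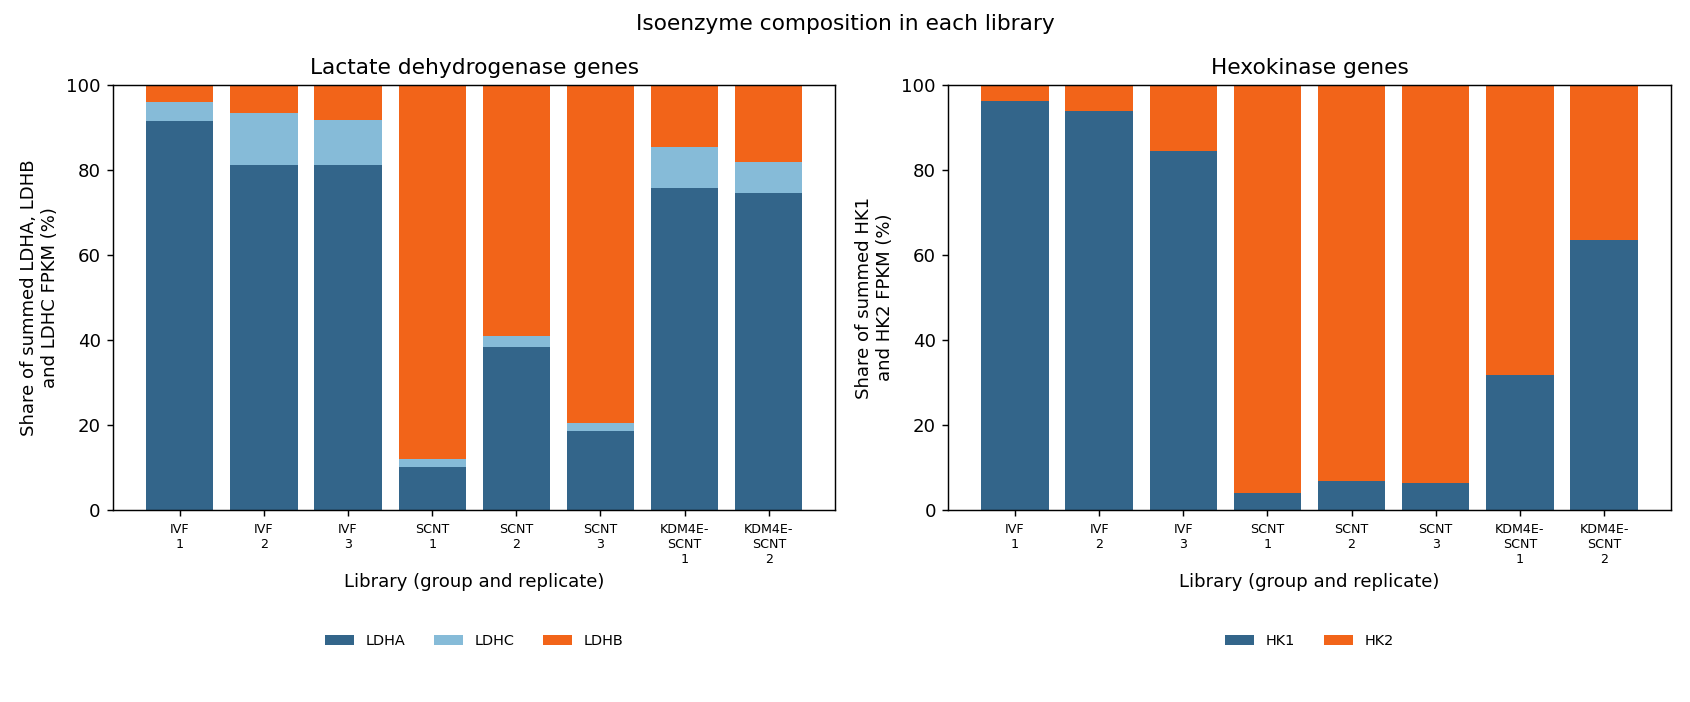
Bars give, for each of the 8 libraries (x axis, group and replicate), the percent of summed FPKM (y axis) held by LDHA, LDHC and LDHB (left) and by HK1 and HK2 (right). LDHA holds 81.1% to 91.6% in IVF and 10.1% to 38.3% in SCNT, and HK1 holds 84.5% to 96.1% in IVF and 4.16% to 6.83% in SCNT.

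The 2 hexokinase genes, whose enzymes phosphorylate glucose on entry into the cell, also differed in opposite directions. HK1 (ENSBTAG00000012380.5, chromosome 28, 25854741 to 25925054) was listed at 30.18, 11.61 and 26.01 FPKM in the IVF libraries, 1.98, 2.67 and 2.22 in SCNT, and 10.53 and 15.17 in KDM4E-SCNT. IVF and KDM4E-SCNT libraries overlapped each other, and both lay above all SCNT libraries. The log2 difference was 2.75 ± 0.38 for IVF against SCNT (limma adjusted p = 6.73e-05) and 2.06 ± 0.42 for KDM4E-SCNT against SCNT (limma adjusted p = 0.00404, and 0.0540 without KDM4E-SCNT replicate 2).

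HK2 (ENSBTAG00000013108.6, chromosome 11, 9723269 to 9766920) was listed at 1.21, 0.77 and 4.77 FPKM in the IVF libraries, 45.67, 36.43 and 33.06 in SCNT, and 22.59 and 8.75 in KDM4E-SCNT. The groups did not overlap, with KDM4E-SCNT between the other groups and its replicate 1 nearer to SCNT. IVF was lower than SCNT by a log2 difference of -3.79 ± 0.46 (limma adjusted p = 2.77e-05). HK1 was 96.1%, 93.8% and 84.5% of the summed HK1 and HK2 FPKM in IVF, 4.16%, 6.83% and 6.29% in SCNT, and 31.8% and 63.4% in KDM4E-SCNT. The predominant form was therefore HK1 in all IVF libraries and HK2 in all SCNT libraries, and it differed between the KDM4E-SCNT libraries. The log2 ratio of HK1 to HK2 averaged 2.96 in IVF, -3.57 in SCNT and -0.15 in KDM4E-SCNT, so that IVF differed from SCNT by 6.53, KDM4E-SCNT from SCNT by 3.42 and KDM4E-SCNT from IVF by -3.11. Their exact permutation p was 0.1 in each case, again the smallest possible. The summed HK1 and HK2 FPKM was 12.38 to 31.39 in IVF, 35.28 to 47.65 in SCNT, and 33.12 and 23.92 in KDM4E-SCNT.

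Further down the pathway, neighbouring steps moved in opposite directions. PGK1 (ENSBTAG00000000894.5, chromosome X, 79282708 to 79305386), phosphoglycerate kinase, makes the first ATP of glycolysis. Its level was 3.89, 5.12 and 8.42 FPKM in IVF, 152.16, 164.08 and 161.31 in SCNT, and 49.51 and 32.73 in KDM4E-SCNT. The SCNT libraries lay within a narrow range far above both other groups, and KDM4E-SCNT lay between SCNT and IVF. The IVF mean of 5.81 ± 2.34 (SD, n = 3) against 159 ± 6.24 (SD, n = 3) gave a log2 difference of -4.61 ± 0.32, or 24.4-fold lower, the largest among the 10 genes (limma adjusted p = 5.77e-07). KDM4E-SCNT was lower than SCNT by -1.96 ± 0.35 (limma adjusted p = 0.00213).

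GAPDH (ENSBTAG00000014731.5, chromosome 5, 104237902 to 104241979), the dehydrogenase of the step just before PGK1 and a common reference gene in quantitative PCR, was higher outside SCNT. Its level was 130.23, 54.29 and 103.09 FPKM in IVF, 14.59, 13.96 and 13.09 in SCNT, and 31.86 and 109.86 in KDM4E-SCNT. SCNT libraries were the lowest and nearly equal, and the KDM4E-SCNT libraries lay far apart. The log2 difference was 2.61 ± 0.43 for IVF against SCNT (limma adjusted p = 0.000255) and 2.02 ± 0.48 for KDM4E-SCNT against SCNT (limma adjusted p = 0.00832, and 0.133 without KDM4E-SCNT replicate 2). An unannotated locus on chromosome 1 (93139872 to 93140446), which the files match to a predicted glyceraldehyde phosphate dehydrogenase protein, was listed at 24.05 to 53.84 FPKM in the IVF libraries, 4.73 to 9.79 in SCNT, and 15.78 and 49.84 in KDM4E-SCNT. How the authors shared reads between near-identical copies is not given in the sources used here, so the GAPDH level is uncertain to that extent.

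ENO1 (ENSBTAG00000013411.5, chromosome 16, 45401695 to 45416462), the enolase found in most tissues, followed GAPDH at a lower level. It was listed at 15.86, 4.69 and 8.48 FPKM in the IVF libraries, 2.63, 1.81 and 0.46 in SCNT, and 4.73 and 15.63 in KDM4E-SCNT. No IVF or KDM4E-SCNT library overlapped SCNT, though the gap between 4.69 and 2.63 FPKM was small. The log2 differences from SCNT were 1.98 ± 0.51 in IVF (limma adjusted p = 0.00532) and 1.99 ± 0.57 in KDM4E-SCNT (limma adjusted p = 0.0195). The second call was lost with quantile normalization (limma adjusted p = 0.0511) and with no filter on low values (limma adjusted p = 0.0510). The second was not called without KDM4E-SCNT replicate 2 (1.22, limma adjusted p = 0.240) or SCNT replicate 3 (1.61, limma adjusted p = 0.0759).

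The aldolase and pyruvate kinase genes were not called in any comparison. ALDOA (ENSBTAG00000012927.4, chromosome 25, 26470488 to 26475202), the aldolase that splits fructose bisphosphate, was listed at 17.35, 8.23 and 10.95 FPKM in the IVF libraries, 32.46, 15.95 and 16.34 in SCNT, and 11.98 and 16.97 in KDM4E-SCNT. IVF and SCNT overlapped through IVF replicate 1 and SCNT replicates 2 and 3. The log2 difference was -0.76 ± 0.37 (95% interval -1.57 to 0.05, limma adjusted p = 0.0951), and without IVF replicate 1 it was -1.03 and passed the threshold (limma adjusted p = 0.0451). ALDOA also passed as lower in IVF after quantile normalization (-0.93, limma adjusted p = 0.0416) and median-ratio scaling (-1.18, limma adjusted p = 0.0145). PKM (ENSBTAG00000001601.5, chromosome 10, 18965984 to 18992445), the pyruvate kinase of the last step, was listed at 7.17, 5.94 and 7.1 FPKM in the IVF libraries, 8.2, 5.83 and 7.31 in SCNT, and 7.91 and 13.7 in KDM4E-SCNT. Its IVF and SCNT libraries covered nearly the same range, with a log2 difference of -0.06 ± 0.33 whose 95% interval ran from -0.76 to 0.64 (limma adjusted p = 0.878).

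**Figure D2:**
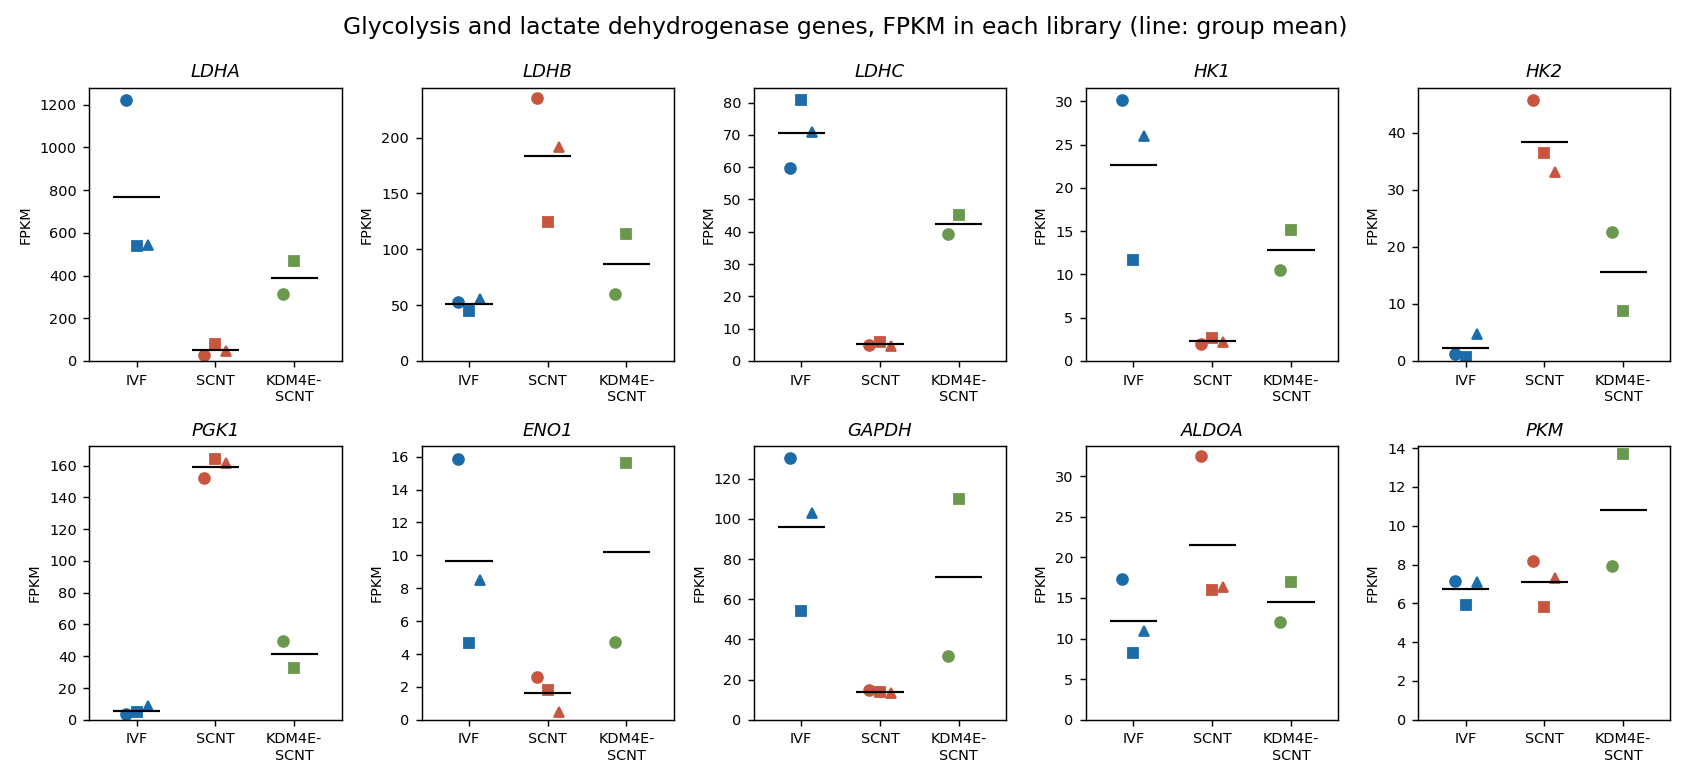
Points give the FPKM of each of the 10 genes in each of the 8 libraries (y axis, linear from 0), grouped as IVF, SCNT and KDM4E-SCNT, 1 panel per gene; circles, squares and triangles are replicates 1, 2 and 3, and lines are group means. SCNT libraries lie at the bottom for LDHA (27.11 to 80.88 FPKM), LDHC, HK1, GAPDH and ENO1, and at the top for PGK1 (152.16 to 164.08 FPKM), HK2 and LDHB.

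In IVF against SCNT, then, 5 of the 10 genes were called higher (LDHA, LDHC, HK1, GAPDH, ENO1), 3 lower (PGK1, HK2, LDHB) and 2 were not called. Across all features tested, 58.5% were called in this comparison, 34.9% higher and 23.6% lower, so calls were common in the transcriptome as a whole. With median-ratio scaling, which brings the median log2 difference of all features near 0, these shares were 27.9% and 29.2%, while the 10 genes gave 5 higher and 4 lower. The libraries of IVF and SCNT did not overlap for the 8 called genes, against 64.4% of all features (38.5% higher in IVF, 25.9% lower). The median log2 difference was 0.96 over the 10 genes and 0.39 over all features. All 8 calls were kept in each of the 16 alternative analyses run for this comparison.

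The order of levels also differed. In IVF, LDHA stood alone at the top, above GAPDH and LDHC, whose libraries overlapped, and above LDHB, whose libraries lay below those of LDHC. PGK1, PKM and ENO1 overlapped near the bottom in IVF, and HK2 had the lowest mean, 2.25 ± 2.19 FPKM (SD, n = 3), though its replicate 3 lay within the PGK1 range. In SCNT, LDHB and PGK1 were highest and overlapped, followed by LDHA and HK2, which also overlapped, while HK1 and ENO1 overlapped at the bottom (2.29 ± 0.350 and 1.63 ± 1.10 FPKM, SD, n = 3). In both KDM4E-SCNT libraries LDHA was again the most abundant of the 10 genes.

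The second comparison asks how cloned embryos with KDM4E overexpression differed from cloned embryos without it. Of the 10 genes, 5 were called higher in KDM4E-SCNT (LDHA, LDHC, HK1, GAPDH, ENO1), 2 lower (PGK1, LDHB) and 3 were not called (HK2, ALDOA, PKM). Across all features 32.6% were called, 21.6% higher and 11.0% lower, or 14.1% and 18.6% with median-ratio scaling. Over the 10 genes median-ratio scaling gave 5 higher and 3 lower, HK2 being added, and 1 total per library gave 5 and 1, LDHB not being called. For 8 of the 10 genes the libraries of the groups did not overlap, HK2 included, against 59.5% of all features (38.1% higher in KDM4E-SCNT, 21.4% lower). ALDOA (-0.49 ± 0.42, limma adjusted p = 0.382) and PKM (0.51 ± 0.36, limma adjusted p = 0.297) overlapped. HK2 was lower in both KDM4E-SCNT libraries than in any SCNT library, with a log2 difference of -1.36 ± 0.52 (limma adjusted p = 0.0589). It passed as lower in 5 of 15 alternative analyses: median-ratio scaling (limma adjusted p = 0.0177), quantile normalization (0.0414), a stricter filter of 5 FPKM in 2 libraries (0.0429), a fit of only these groups (0.0355), and without KDM4E-SCNT replicate 1 (0.0309). The median log2 difference was 1.25 over the 10 genes and 0.32 over all features. Both this comparison and that of IVF use the same SCNT libraries, so the matching directions are not separate evidence.

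Without KDM4E-SCNT replicate 2, 4 of the 10 genes were called in place of 7, in a comparison of the single library left with SCNT that borrows its spread from the other groups. In it, LDHA (log2 difference 2.73, limma adjusted p = 0.0233), LDHC (2.73, limma adjusted p = 0.0109), PGK1 (-1.66, limma adjusted p = 0.0359) and LDHB (-1.54, limma adjusted p = 0.0377) were called. HK1 (1.82), GAPDH (1.14) and ENO1 (1.22) were not. Calls over all features fell from 4844 to 1553 without that library. Without KDM4E-SCNT replicate 1, which likewise leaves a single library, the log2 difference of HK2 was -2.00. LDHA, LDHC and PGK1 kept their calls in all 15 alternative analyses. Replicate 2 was the KDM4E-SCNT library with the higher sum of oocyte transcripts, the lower sum of genome activation transcripts and the higher sum of fibroblast markers. Their part in these values was not tested.

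The third comparison sets KDM4E-SCNT against IVF. HK2 (log2 difference 2.42 ± 0.52, limma adjusted p = 0.0126) and PGK1 (2.65 ± 0.35, limma adjusted p = 0.000902) were called higher in KDM4E-SCNT, and the other 8 genes were not called, against 6.52% of all features called (5.90% higher, 0.620% lower). Both called genes are ones that stood highest in SCNT, and for both the KDM4E-SCNT libraries lay between the other groups. PGK1 kept its call in every alternative, whereas HK2 lost it without KDM4E-SCNT replicate 1 (1.79, limma adjusted p = 0.233) and when only the libraries of these groups were fitted (limma adjusted p = 0.0616).

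For the lactate dehydrogenases the remaining distance to IVF was not called. The log2 difference between KDM4E-SCNT and IVF was -0.89 ± 0.46 for LDHA (95% interval -1.89 to 0.11, limma adjusted p = 0.309), -0.72 ± 0.31 for LDHC (-1.39 to -0.04, limma adjusted p = 0.225) and 0.70 ± 0.36 for LDHB (-0.08 to 1.48, limma adjusted p = 0.306). In all 3 genes the KDM4E-SCNT libraries nonetheless lay outside the IVF range, on the side of SCNT. Such a lack of overlap was found for 6 of the 10 genes and for 33.9% of all features (20.0% higher in KDM4E-SCNT, 13.9% lower). These intervals do not show that the levels were equal. ENO1 (0.01 ± 0.57, limma adjusted p = 0.997) and GAPDH (-0.59 ± 0.48, limma adjusted p = 0.545) overlapped with IVF, as did HK1 (-0.69 ± 0.42, limma adjusted p = 0.406) and ALDOA (0.27 ± 0.42, limma adjusted p = 0.774). PKM was higher in both KDM4E-SCNT libraries than in any IVF library, without passing the test (0.57 ± 0.36, limma adjusted p = 0.424).

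**Figure D3:**
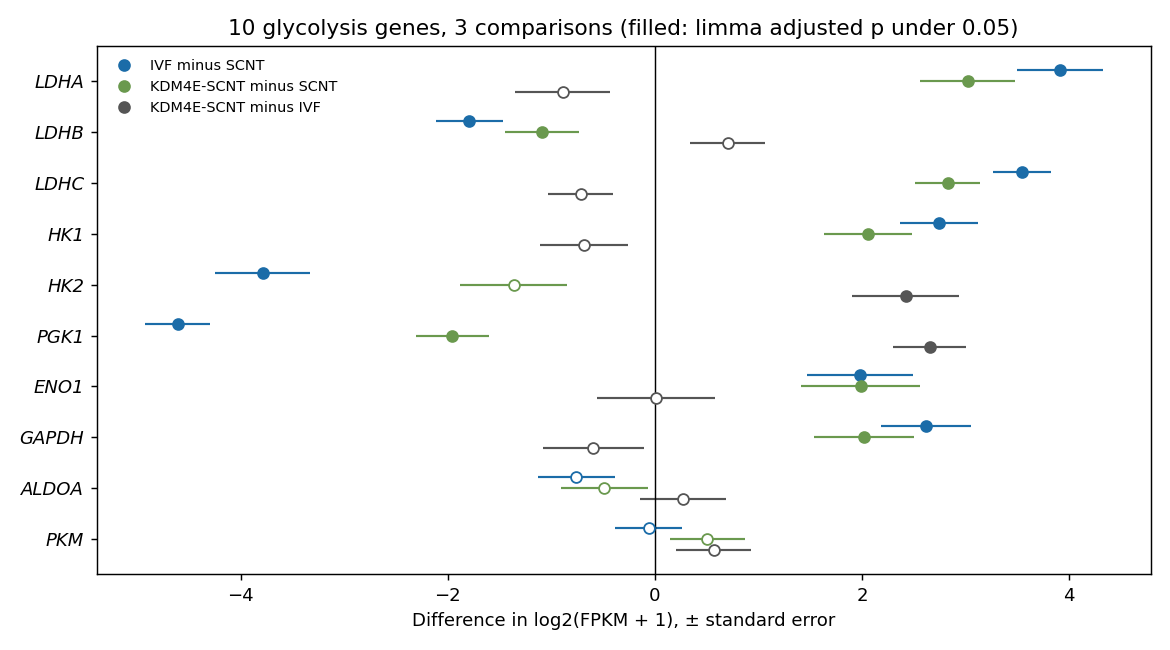
Points give the difference in mean log2(FPKM + 1) (x axis) for each of the 10 genes (y axis) in the 3 comparisons, with bars for the standard error; filled points were called. LDHA reaches 3.91 and PGK1 -4.61 for IVF minus SCNT, and KDM4E-SCNT minus SCNT shows the same signs for both, at 3.02 and -1.96.

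Across the 8 libraries most of the 10 genes followed one of a pair of opposite courses, given here as description, since the libraries share groups. The Pearson correlation of log2(FPKM + 1) was 0.97 between LDHA and HK1, 0.95 between LDHA and LDHC, 0.97 between GAPDH and HK1, and 0.97 between HK2 and PGK1, whereas it was -0.91 between LDHA and PGK1. PKM followed neither course (0.099 with LDHA, 0.095 with PGK1), its highest correlation being 0.47 with ENO1. ALDOA ran with LDHB (0.80) but was only weakly related to GAPDH (-0.38) and ENO1 (-0.16). Among 3499 features with a symbol and a mean log2(FPKM + 1) of at least 4, those most like LDHA were WEE2, an oocyte kinase that holds meiotic arrest (r = 0.996), EXTL2 (0.994), FEZ2 (0.994), MICAL2 (0.993) and ARPP21 (0.993). Those most like PGK1 were MAP1LC3B, an autophagosome protein (0.997), SFPQ, a splicing factor (0.997), TIMM10B, of the mitochondrial import machinery (0.996), RND3 (0.995) and NOP16, a nucleolar protein (0.994).

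The surrounding pathway was read from 7 lists of other genes, 94 in all, of which 78 were in the files and 53 passed the filter. In IVF against SCNT 19 of the 53 were called higher and 17 lower, or 67.9%, beside the 58.5% of all features. Median-ratio scaling gave 14 and 19, beside 27.9% and 29.2% of all features. In KDM4E-SCNT against SCNT 14 were higher and 9 lower, or 43.4%, beside 32.6% of all features (21.6% higher, 11.0% lower). With median-ratio scaling 8 were higher and 17 lower, beside 14.1% and 18.6% of all features. Without KDM4E-SCNT replicate 2, which leaves a single library in that group, fewer were called, as was the case over all features. In KDM4E-SCNT against IVF 6 were higher and 0 lower, or 11.3%, beside 6.52% of all features (5.90% higher, 0.620% lower). That count was 2 higher with no filter on low values, beside 2.86% of all features higher, and in a fit of only those groups, beside 3.4%. It also fell without KDM4E-SCNT replicate 1, which leaves a single library in that group, as did the share of all features.

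Of 23 other enzymes and paralogues of glycolysis, 10 were tested. In IVF against SCNT 3 were higher, 2 lower and 5 not called, beside 34.9% higher and 23.6% lower of all features. Their median log2 difference was 0.27. BPGM, which makes bisphosphoglycerate, a haemoglobin effector, on a side branch of glycolysis, was listed at 772.5, 647.97 and 892.35 FPKM in the IVF libraries, 142.15, 150.26 and 129.54 in SCNT, and 421.23 and 691.7 in KDM4E-SCNT. Its groups of IVF and SCNT were far apart (2.44 ± 0.26, limma adjusted p = 1.13e-05), and KDM4E-SCNT was higher than SCNT (1.94 ± 0.29, limma adjusted p = 0.00114, and 0.0184 without KDM4E-SCNT replicate 2). ENO4, an enolase known from sperm, was higher in IVF (2.15 ± 0.39, limma adjusted p = 0.000484), while ADPGK, a sugar kinase that uses ADP, was lower (-2.08 ± 0.35, limma adjusted p = 0.000299).

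The aldolase ALDOC was lower in IVF (-1.12 ± 0.37, limma adjusted p = 0.0210), the same sign as ALDOA, but was not called without IVF replicate 2 or 3 or SCNT replicate 1 or 3 (limma adjusted p from 0.0697 to 0.0929). TPI1, triosephosphate isomerase, was higher in IVF (1.27 ± 0.45, limma adjusted p = 0.0279), a call lost without IVF replicate 1 or 3 or SCNT replicate 1 or 2 (limma adjusted p from 0.0619 to 0.12). That call was also lost with median-ratio scaling, quantile normalization or no filter on low values (limma adjusted p from 0.0559 to 0.0893). GPI (25.85 to 46.97 FPKM in IVF, 34.62 to 45.1 in SCNT) and PGAM1 (32.72 to 69.98 and 43.52 to 53.98) overlapped between these groups and were not called, with log2 differences of -0.25 ± 0.32 and 0.09 ± 0.32 (limma adjusted p = 0.514 and 0.818). HKDC1 (0.91 ± 0.39), GAPDHS (0.45 ± 0.36) and ENO3 (0.00 ± 0.45) were not called either (limma adjusted p = 0.0608, 0.290 and 0.997). HKDC1 passed in 3 alternatives, with 1 total per library, with that total less mitochondrial genes, and in a fit of only IVF and SCNT (limma adjusted p from 0.0324 to 0.0465).

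None of the 3 phosphofructokinase genes, whose enzyme commits sugar to glycolysis, passed the filter. PFKL reached at most 0.1 FPKM, PFKM at most 0.69 and PFKP at most 3.84, the last in SCNT replicate 3, with 0.59 or less in each other library. HK3, ENO2 and PKLR, which belong mostly to other tissues, also did not pass. Among 7 tested regulators, 3 were higher in IVF and 2 lower, beside 34.9% and 23.6% of all features. PFKFB1 (2.04 ± 0.46, limma adjusted p = 0.00232), an enzyme that makes and breaks down the sugar bisphosphate that activates phosphofructokinase, and TIGAR (2.00 ± 0.33, limma adjusted p = 0.000235), a phosphatase that breaks it down, were higher. PFKFB4, another member of the same enzyme family, was lower (-2.12 ± 0.35, limma adjusted p = 0.000232), as was the transcription factor gene MYC (-1.74 ± 0.42, limma adjusted p = 0.00354).

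Of 6 transporters of sugars and lactate tested, 3 were lower in IVF and 0 higher, beside 23.6% and 34.9% of all features, with a median log2 difference of -1.60. Without IVF replicate 2, 1 was called higher. SLC2A3, the neuronal-type glucose carrier GLUT3, stood at 40, 15.98 and 31.39 FPKM in IVF, 224.63, 149.3 and 161.26 in SCNT, and 67.81 and 38.88 in KDM4E-SCNT (-2.64 ± 0.36 for IVF against SCNT, limma adjusted p = 6.45e-05). SLC2A5, the fructose carrier GLUT5, was listed at 0, 0 and 0.1 FPKM in the IVF libraries, 33.05, 23.54 and 31.4 in SCNT, and 6.77 and 4.22 in KDM4E-SCNT (-4.86 ± 0.33, limma adjusted p = 5.63e-07). SLC16A1, the lactate and pyruvate carrier MCT1, stood at 3.54, 15.44 and 9.13 FPKM in IVF, 46.85, 49 and 37.41 in SCNT, and 22.29 and 18.5 in KDM4E-SCNT (-2.31 ± 0.41, limma adjusted p = 0.000432). For all 3, which were named for their small p, the SCNT libraries were highest without overlap, as for HK2 and PGK1. Over all features, 25.9% were lower in IVF than in SCNT without overlap, and 21.4% lower in KDM4E-SCNT than in SCNT. The other transporters tested overlapped between IVF and SCNT. In KDM4E-SCNT against SCNT, SLC2A5 was lower (-2.24 ± 0.37, limma adjusted p = 0.00147, and 0.0255 without KDM4E-SCNT replicate 2). SLC2A3 was lower as well (-1.75 ± 0.41, limma adjusted p = 0.00701), though not without that library (limma adjusted p = 0.0926).

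**Figure D4:**
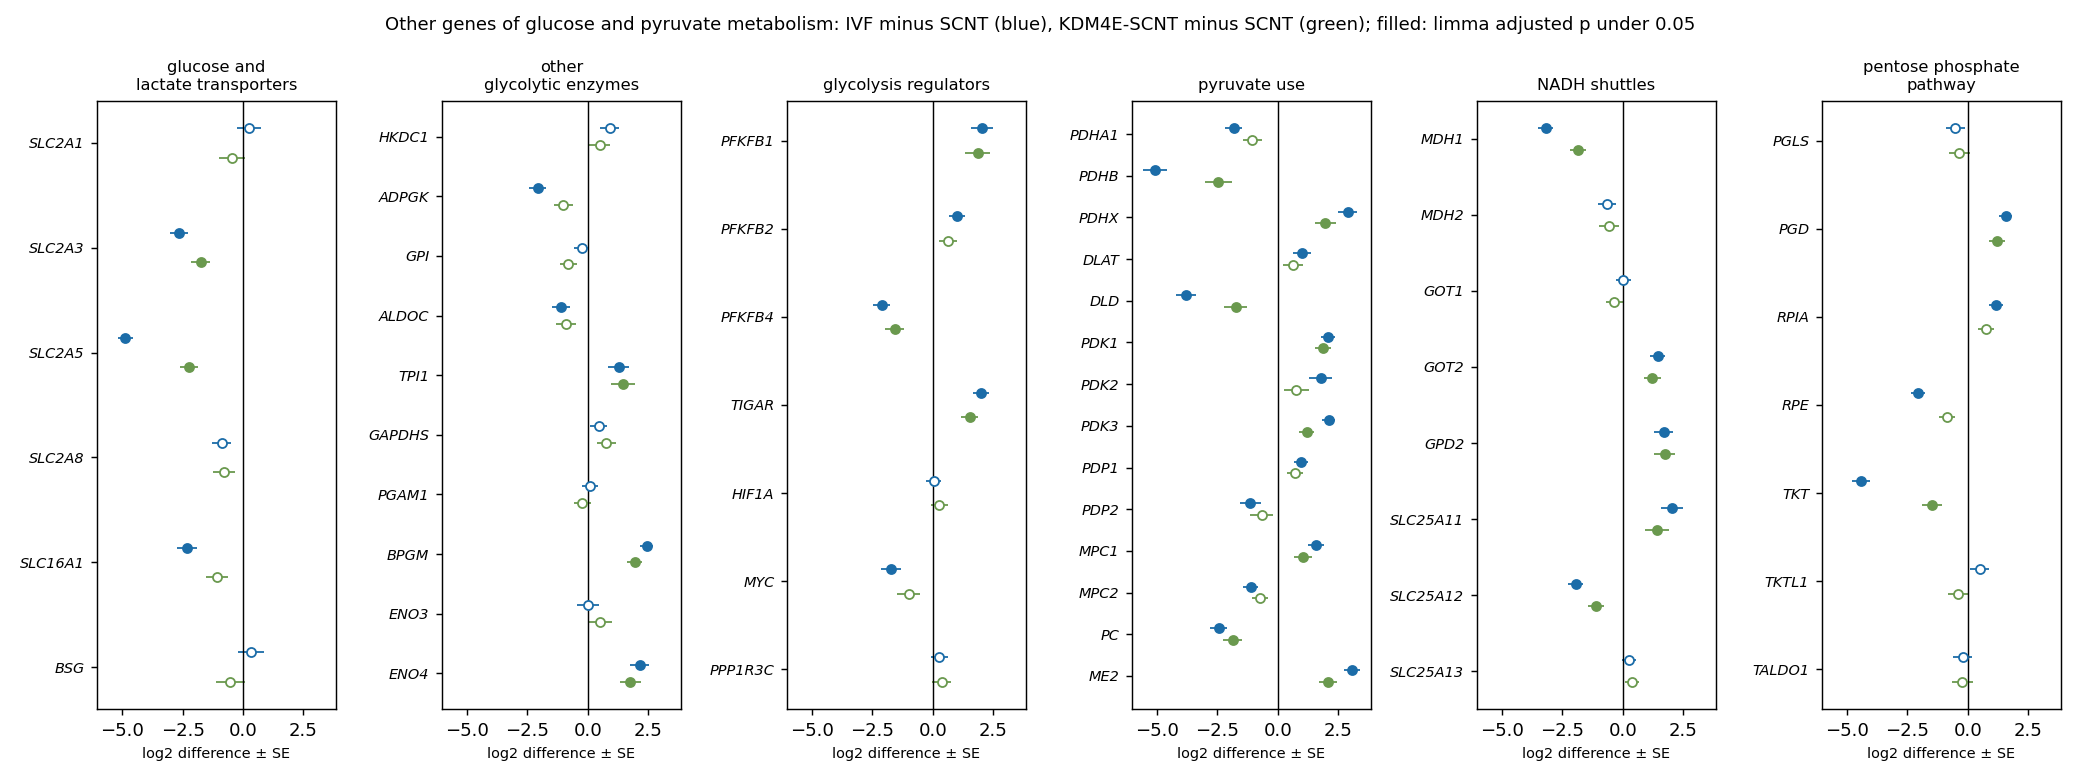
Points give, for the tested genes of 6 pathway lists (y axis, 1 panel per list), the difference in mean log2(FPKM + 1) (x axis) for IVF minus SCNT (blue) and KDM4E-SCNT minus SCNT (green), with bars for the standard error; filled points were called. Called transporters all lie below 0, down to -4.86 for SLC2A5, while genes of pyruvate use lie on both sides, from -5.08 for PDHB to 3.07 for ME2.

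Genes of pyruvate use, the other fate of the product of PKM, were called for 14 of 14 tested in IVF against SCNT, 8 higher and 6 lower, beside 58.5% of all features (34.9% higher, 23.6% lower). The counts were 7 and 5 with no filter on low values, beside 22.9% and 15.7% of all features. With median-ratio scaling they were 6 and 6, beside 27.9% and 29.2%. Subunits of 1 enzyme complex, pyruvate dehydrogenase, went both ways. PDHB, the beta subunit of its first enzyme, was listed at 0, 1.63 and 1.27 FPKM in the IVF libraries, 62.19, 48.81 and 73.01 in SCNT, and 21.28 and 4.55 in KDM4E-SCNT (-5.08 ± 0.50 for IVF against SCNT, limma adjusted p = 6.30e-06). DLD, the dehydrogenase it shares with related complexes, stood at 45.24, 18.12 and 40.71 FPKM in IVF, 476.01, 436.09 and 478.31 in SCNT, and 249.42 and 76.8 in KDM4E-SCNT (-3.80 ± 0.42, limma adjusted p = 1.44e-05). For both genes IVF was lowest and SCNT highest without overlap, with KDM4E-SCNT replicate 2 nearer to IVF.

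Several further genes of this list were picked after their values had been seen. PDHX, which holds DLD in the complex, was higher in IVF, at 41.5, 18.3 and 20.73 FPKM against 3.54, 3.37 and 1.19 in SCNT (2.89 ± 0.40, limma adjusted p = 6.76e-05). PDHA1, the alpha subunit of the first enzyme, was lower (-1.83 ± 0.34, limma adjusted p = 0.000635). DLAT, the core acetyltransferase, was weakly higher (1.00 ± 0.39, limma adjusted p = 0.0403), a call lost without IVF replicate 1 or 3 or SCNT replicate 2 or 3 (limma adjusted p from 0.0665 to 0.149). That call was also lost with median-ratio or upper-quartile scaling, quantile normalization, no filter on low values, or the replicate block (limma adjusted p from 0.0527 to 0.148).

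PDK3, a kinase that switches the complex off, was higher in IVF. It stood at 161.43, 129.51 and 160.42 FPKM in IVF, 31.86, 43.93 and 27.92 in SCNT, and 66.92 and 94.43 in KDM4E-SCNT (2.11 ± 0.28, limma adjusted p = 5.50e-05), and PDK1, another such kinase picked after its values were seen, differed by 2.08 ± 0.31 (limma adjusted p = 0.000108). ME2, a mitochondrial malic enzyme that makes pyruvate, was higher too (3.07 ± 0.33, limma adjusted p = 1.01e-05). Of other genes looked at after their values were seen, the kinase PDK2 was higher in IVF (1.78 ± 0.48, limma adjusted p = 0.00652). The opposing phosphatases went both ways, PDP1 being higher (0.96 ± 0.30, limma adjusted p = 0.0142) and PDP2 lower (-1.13 ± 0.43, limma adjusted p = 0.0387). Over all features, 21.6% were called higher and 11.0% lower in KDM4E-SCNT than in SCNT. In KDM4E-SCNT against SCNT 5 of the 14 genes were higher and 3 lower. Without KDM4E-SCNT replicate 2, which leaves a single library in that group, fewer were called, as was the case over all features.

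**Figure D5:**
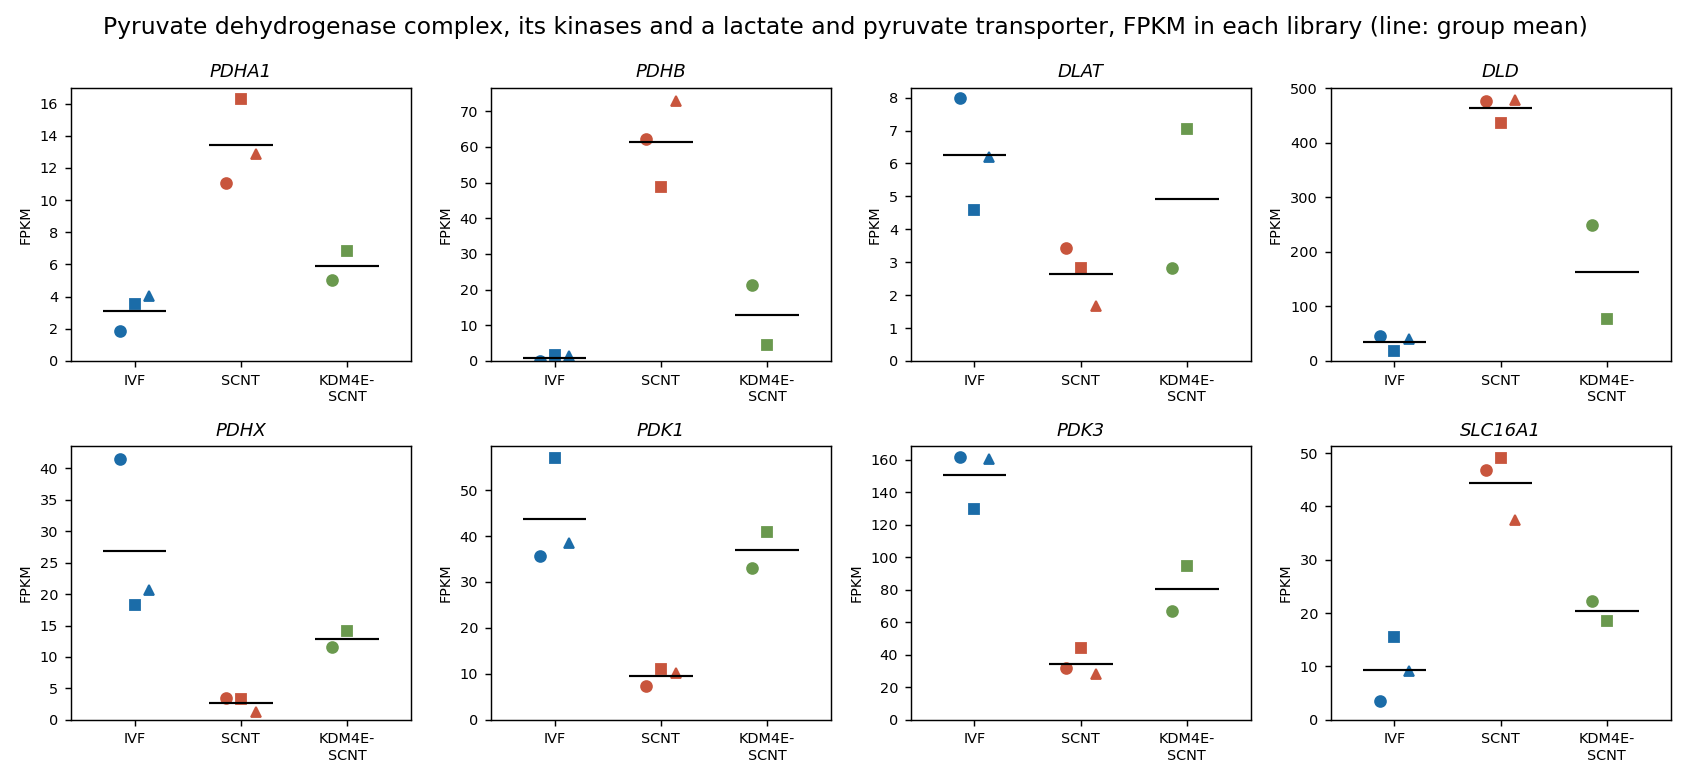
Points give the FPKM (y axis, linear from 0) in each of the 8 libraries for pyruvate dehydrogenase subunits, PDK1, PDK3 and SLC16A1, 1 panel per gene, grouped as IVF, SCNT and KDM4E-SCNT; circles, squares and triangles are replicates 1, 2 and 3, and lines are group means. PDHB lies at 48.81 to 73.01 FPKM in SCNT and at 0 to 1.63 in IVF, whereas PDHX lies at 1.19 to 3.54 in SCNT and at 18.3 to 41.5 in IVF.

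The shuttles that carry NADH electrons into mitochondria compete with lactate dehydrogenase for NADH. They had 3 genes higher and 2 lower of 8 tested in IVF against SCNT, beside 34.9% and 23.6% of all features. MDH1, the cytosolic malate dehydrogenase, was listed at 10.62, 7.36 and 7.58 FPKM in the IVF libraries, 91.69, 81.59 and 82.87 in SCNT, and 17.47 and 29.56 in KDM4E-SCNT. The groups did not overlap, and the log2 difference was -3.20 ± 0.30 for IVF against SCNT (limma adjusted p = 4.42e-06) and -1.86 ± 0.34 for KDM4E-SCNT against SCNT (limma adjusted p = 0.00218, and 0.0143 without KDM4E-SCNT replicate 2). SLC25A12, an aspartate and glutamate carrier, was lower in IVF (-1.95 ± 0.30, limma adjusted p = 0.000155), whereas GOT2, the mitochondrial aspartate aminotransferase, was higher (1.44 ± 0.32, limma adjusted p = 0.00206), as was GPD2, the mitochondrial glycerol phosphate dehydrogenase (1.69 ± 0.38, limma adjusted p = 0.00214).

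In the pentose phosphate pathway, which branches from glycolysis after hexokinase, 2 genes were higher and 2 lower of 7 tested in IVF against SCNT. Over all features 34.9% were higher and 23.6% lower. TKT, the transketolase that returns sugars to glycolysis, stood at 2.9, 1.34 and 4.3 FPKM in IVF, 105.53, 55.12 and 77.5 in SCNT, and 31.71 and 23.42 in KDM4E-SCNT. KDM4E-SCNT lay between the groups without overlap. Genes outside these lists, such as NANOG and EIF1AX, had that order too, though KLF17 and HSPA1A did not. The share of all features with that order was not counted. TKT was lower in IVF than in SCNT (-4.41 ± 0.37, limma adjusted p = 2.20e-06) and higher in KDM4E-SCNT than in IVF (2.96 ± 0.41, limma adjusted p = 0.00117). RPE was lower in IVF (-2.06 ± 0.29, limma adjusted p = 8.42e-05). PGD (1.57 ± 0.29, limma adjusted p = 0.000522) and RPIA (1.18 ± 0.30, limma adjusted p = 0.00450) were higher, RPIA not with median-ratio scaling (limma adjusted p = 0.05002). Of the gluconeogenesis genes, G6PC3 alone of 8 listed was tested, and it was not called (0.12 for IVF minus SCNT, limma adjusted p = 0.828).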

How the data were processed

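Poly(A)-tailed and PCR-amplified cDNA from embryo pools was sequenced on an Illumina instrument, per the labels. The authors deposited 1 FPKM table per library, per the file headers, to 2 decimals for 21258 features. The submitters' processing notes list RSEM 1.2.12, HISAT 0.1.6, Bowtie2 2.2.5, bcl2fastq 2.16, StringTie 1.0.4 and the build UMD3.1, with no step assigned to each. How reads shared by several loci were handled is not given in the sources used here. The files hold no counts, so depth is unknown and no counting interval is given.

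Groups came from the sample titles, and gene names from the files. Features that reached 1 FPKM in 2 or more libraries were tested as log2(FPKM + 1), which understates changes of low genes. All 8 libraries entered 1 group-means model (limma 3.58.1 in R 4.3.3, trend and robust moderation), with two-sided Benjamini-Hochberg adjusted p called under 0.05. Ratios of 2 genes within a library were compared by exact permutation. The procedure was tested on simulated data. Alternatives changed the pseudocount to 0.1, the filter, the scaling, the libraries fitted and the replicate block, and left out each library.

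The 10 genes and the pathway and marker lists were chosen with earlier results of these data known. Named outside the 10 genes are up to 4 genes a list with the smallest p for IVF minus SCNT, all tested glycolytic paralogues, and the 5 genes most correlated with LDHA and with PGK1. PDHX, PDHA1, DLAT, PDK1, PDK2, PDP1, PDP2 and the neighbours of the 10 genes are marked as picked or examined after values were seen. Single marker genes and untested paralogues were named outside these rules and carry no such mark.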

Additional observations from a re-analysis of the deposited data

How the results depend on the processing

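Of 136 recomputed counts and ratio differences, 129 were taken as kept and 0 turned. A ratio difference was taken as kept when its sign held, whatever its size. A count was taken as kept when it stayed within a set factor of the main count. By that rule 3267 calls for KDM4E-SCNT against SCNT without SCNT replicate 3, in place of 4844, still counted as kept. The exceptions all concern KDM4E-SCNT. Against SCNT, leaving out single libraries gave 1553 to 4499 calls over all features and 4 to 7 over the 10 genes, with 3227 calls without SCNT replicate 1. Against IVF it gave 298 to 1301 calls and 1 to 2 of the 10 genes, and fitting only those groups gave 541 calls and 1 gene. These alternatives fit fewer libraries, and the cause was not tested further.

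Median-ratio scaling moved the median log2 difference of all features from 0.39 to 0.10 for IVF minus SCNT, and from 0.32 to 0.02 for KDM4E-SCNT minus SCNT. The directions of the 8 called genes held under it. Signs turned only for differences that were not called either way. For IVF minus SCNT, ENO3 was 0.53 with a pseudocount of 0.1, 0.10 with 1 total per library (0.10 also without mitochondrially encoded genes), and -0.35 to 0.46 without single libraries. PGAM1 was -0.35 with median-ratio scaling, -0.00951 with upper-quartile scaling, and -0.12 to 0.41 without single libraries. PKM was 0.11 with 1 total, 0.0833 without mitochondrial genes as well, and -0.18 to 0.0344 without single libraries. For KDM4E-SCNT minus IVF, ENO1 was -0.0612 with quantile normalization, -0.0146 with median-ratio scaling, -0.0776 with 1 total, -0.0109 without mitochondrial genes as well, -0.19 with the replicate block, and -0.76 to 0.78 without single libraries. GAPDH there ran from -1.47 to 0.28, and HKDC1 for KDM4E-SCNT minus SCNT from -0.13 to 1.13.

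The labels do not say whether a shared replicate number marks a batch. Deviations of same-numbered libraries of IVF and SCNT correlated at 0.06, 0.09 and 0.03, and those of other pairs at -0.11 to 0.07. IVF replicate 3 correlated best with SCNT replicate 1 (0.07). Same-numbered libraries of KDM4E-SCNT and SCNT correlated at 0.01 and 0.12, against up to 0.13 for other pairs, and those of KDM4E-SCNT and IVF at 0.03 and 0.07. Deviations of the 2 KDM4E-SCNT libraries from their mean mirror each other. With SCNT replicate 2 they correlated at -0.12 and 0.12, so the signs of these pairs are tied and not independent. All same-numbered pairs were positive but small, which does not show whether the numbers carry a batch. With the replicate block, 8656, 4252 and 957 features and 8, 6 and 2 of the 10 genes were called for IVF against SCNT, KDM4E-SCNT against SCNT, and KDM4E-SCNT against IVF.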

Other observations

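Tested genes next to the 8 genes called in IVF against SCNT differed both with and against them. Over all features, 34.9% were called higher in that comparison and 23.6% lower. Within 50000 bases on the UMD3.1 coordinates of the files, TSG101, an endosomal sorting gene 14333 bases from LDHC, was higher in IVF than in SCNT, as were LDHC and LDHA (log2 difference 2.02 ± 0.25, limma adjusted p = 3.51e-05). POLE4, a DNA polymerase subunit gene 28282 bases from HK2, was lower in IVF, as was HK2 (-2.39 ± 0.26, limma adjusted p = 1.31e-05). GTF2H1, a transcription factor subunit 24856 bases from LDHA, was lower (-2.10 ± 0.35, limma adjusted p = 0.000244). TAF9B, 5174 bases from PGK1, had 42, 52.07 and 30.31 FPKM in the IVF libraries, 6.6, 1.88 and 3.75 in SCNT, and 24.61 and 39.28 in KDM4E-SCNT, the reverse of PGK1 (3.14 ± 0.39, limma adjusted p = 3.06e-05). Around GAPDH, which was higher in IVF, the chromatin remodeller gene CHD4 (-1.75), the nucleolar gene NOP2 (-2.74), the condensin gene NCAPD2 (-1.74) and the mitochondrial ribosome gene MRPL51 (-1.67) were all lower in IVF, with limma adjusted p from 8.13e-05 to 0.00125. IFFO1, 962 bases from GAPDH, was not called (0.46 ± 0.35, limma adjusted p = 0.277). These neighbours were examined after the values of the 10 genes were known, and distances are between gene bounds with strand not considered.

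The 10 genes together held 0.107% to 0.207% of all FPKM in IVF, 0.0536% to 0.0622% in SCNT, and 0.0686% and 0.111% in KDM4E-SCNT. Without the 3 lactate dehydrogenase genes, the summed FPKM of the other 7 was 90.7 to 206 in IVF, 234 to 258 in SCNT, and 139 and 213 in KDM4E-SCNT. The higher total in IVF was thus held by LDHA, and the sum of the 7 glycolytic enzyme genes was highest in SCNT, where PGK1 made up most of it.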
